A study of Mus musculus with 908 samples.

Results

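The cytosolic ribosomal protein genes were examined in tumour cells of mouse cutaneous squamous cell carcinoma, sequenced cell by cell. Members were taken by symbol from the deposited expression tables: every Rpl or Rps gene with a number and its lettered or paralogous forms, together with Rpsa, Rplp0, Rplp1 and Rplp2, without pseudogenes named -ps and without the Rps6k kinases. This rule found 88 of 46517 gene rows, 51 of the large subunit and 37 of the small subunit. The tumour cells had been sorted into wells by flow cytometry, 1 cell to a well, and each library was made by Smart-seq2, which primes on poly(A) and amplifies full-length cDNA. The levels are in TPM, a relative transcript abundance that is scaled for transcript length and for the size of the library, so that levels of different genes can be set side by side. The study sampled tumours before and after adoptive cell transfer (ACT), an immunotherapy in which T cells are infused.

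Cells from before therapy carried TRE-HrasG12V;SBE-mCherry-PGK-rtTA3, and cells from after therapy carried TRE-OVA;TRE-HrasG12V:PGK-rtTA3P2AmCherry. In both strains an activated Hras is switched on through the rtTA3 activator. In the first strain mCherry reports from a SMAD-binding element, a readout of TGF-beta signalling, and in the second mCherry marks cells that make rtTA3 and comes with inducible ovalbumin. All mice were labelled P60-P90 and of mixed sex, and all gates left out CD45, CD117, CD140a and CD31. The reporter-positive group, 73 cells from plate CSC1 and 32 from plate CSC2, was integrin α6-positive, mCherry-positive, CD34-positive and CD44-positive. The CD44-positive group, 15 cells, was integrin α6-positive and CD44-positive without mCherry or CD34. The CD44-negative group, 91 cells, was integrin α6-positive without mCherry, CD34 or CD44, and the α6-negative group, 43 cells, lacked all 4 of these markers. The after-transfer group, 87 cells from plate OT2 and 90 from plate OT_B, was sorted on mCherry alone. Strain, reporter and gate all changed between before and after transfer, so an effect of therapy cannot be told apart from them.

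Each eukaryotic ribosome joins a large and a small subunit, and each ribosomal protein is present in a single copy, except the stalk proteins Rplp1 and Rplp2, which sit as dimers on Rplp0. Most ribosomal protein messages begin with a cytosine followed by a run of pyrimidines, the 5′ terminal oligopyrimidine (TOP) motif, through which mTOR signalling and the Larp1 protein set their translation. In the epidermis, protein synthesis is known to be low in stem cells and to rise in their committed progeny, and squamous tumours have been studied for the same contrast.

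The start of these genes is shown first because a pyrimidine run there is a feature that many ribosomal protein genes are known for. Of the 88 members, 63 were matched by symbol to the RefSeq promoter table (build GRCm38.p6), and the window is the 30 bases around the annotated start, 15 before it and 15 from it on. Capitals mark the longest run of C and T in each window. These 5 members carried long runs:
Rpl7a (chr2:26910792-26910821, plus strand): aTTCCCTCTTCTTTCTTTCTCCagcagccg
Rpl35 (chr2:39005117-39005146, minus strand): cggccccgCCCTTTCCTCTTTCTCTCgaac
Rpl15 (chr14:18270972-18271001, minus strand): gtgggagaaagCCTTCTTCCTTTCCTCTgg
Rpl13a (chr7:45128731-45128760, minus strand): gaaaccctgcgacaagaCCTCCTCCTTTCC
Rps18 (chr17:33955651-33955680, minus strand): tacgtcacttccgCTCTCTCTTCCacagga
The next 2 windows belong to the stalk base Rplp0 and to Rpl41, which were among the most abundant members but had short runs:
Rplp0 (chr5:115559452-115559481, plus strand): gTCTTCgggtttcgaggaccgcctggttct
Rpl41 (chr10:128549154-128549183, minus strand): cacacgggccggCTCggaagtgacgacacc
The last 6 windows are shown as pairs of a ribosomal protein gene and its diverged paralogue, whose levels are compared further on:
Rps27 (chr3:90213634-90213663, minus strand): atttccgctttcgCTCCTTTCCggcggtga
Rps27l (chr9:66946071-66946100, plus strand): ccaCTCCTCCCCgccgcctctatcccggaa
Rpl39 (chrX:37085208-37085237, minus strand): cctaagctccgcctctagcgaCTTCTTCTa
Rpl39l (chr16:10170213-10170242, plus strand): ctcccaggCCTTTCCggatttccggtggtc
Rpl22 (chr4:152325711-152325740, plus strand): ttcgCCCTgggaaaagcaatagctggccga
Rpl22l1 (chr3:28805493-28805522, plus strand): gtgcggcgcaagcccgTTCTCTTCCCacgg
A run of at least 8 pyrimidines was found in 25 of 63 members (39.7%), against 11.9% of the 27025 genes of the table. The first 5 transcribed bases were all C or T in 15 members (23.8%), against 4.36% of all genes, and the first base was C in 33.3% against 16.2%. Of 3 motifs searched on either strand of 300 bases (250 before the start and 50 from it), CCGGAAGT was found in 12 members (19.05%, against 4.0% of all promoters), AAGATGGC in 5 (7.94% against 2.88%) and TATAAA in 6 (9.52% against 14.2%). TATAAA stood in the promoters of Rplp0, Rpl22l1, Rpl36a, Rpl39, Rps2 and Rps28. The annotated start may lie some bases from the start used in these cells, so a short run in the window says only that the letters were not there.

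Each group was treated as 1 sample, because the labels tie no cell to an animal. The ranges below therefore describe cells, no p-value is given, and the 5 comparisons share groups with one another. Of 891 libraries, 696 held 2000 genes or more at 1 TPM and above. Those on plates OT1, OT_A, OT_C and OT_D were left out because many repeat cells of other plates: in pairs of like-named wells the 2 libraries correlated at 0.88 or more over genes. Plate OT1 repeated OT_B in 29 of 68 wells kept on both, and OT_A repeated OT2 in 43 of 71. Plate OT_C, labelled as after transfer, repeated plate CSC1 in 71 of 72 wells, and plate OT_D, labelled likewise, repeated CSC2 in 20 of 30 wells and the CD44 plate in 14 of 15, and neither label could be told to be the true one from the deposited values. With all plates labelled as after transfer, the median share given below for that group was 16.3% in place of 16.6%. Within the groups used, 3 pairs of reporter-positive libraries and 1 pair each in the CD44-positive and α6-negative groups correlated as closely, and averaging them moved the reporter-positive median from 13.2% to 13.1%. Ribosomal RNA rows took a median of 71.5 to 75.1% of TPM per group, so that TPM was rescaled without them and without spike-ins. The median number of genes per cell ran from 5521 in the α6-negative group to 7760 in the reporter-positive group. Spike-in RNA, which is higher where a cell gives less RNA, took a median of 0.134% after transfer, 0.284% in the reporter-positive, 0.435% in the CD44-negative, 0.541% in the CD44-positive and 2.78% in the α6-negative group. The keratinocyte markers led over those of 6 other cell types in every cell of the reporter-positive, CD44-negative and after-transfer groups. In the CD44-positive group they led in 12 of 15 cells, with pericyte or muscle markers leading in 2 and Schwann cell markers in 1. In the α6-negative group they led in 26 of 43 cells, fibroblast markers in 13 and pericyte or muscle markers in 4, so that this group goes against its label as carcinoma cells in part. The 9 fibroblast markers summed to as much as 102400 TPM in an α6-negative cell and to at most 371.2 TPM in a reporter-positive, 579 TPM in a CD44-negative and 332.4 TPM in an after-transfer cell, with Dcn and Mfap5 at 0 in every cell of the last 2 groups. The 7 immune markers summed to at most 599 TPM in any cell.

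Ribosomal protein genes took the largest part of the transcriptome in the CD44-negative cells and the smallest in the α6-negative cells, with the reporter-positive cells lower than the other α6-positive cells. The summed share per cell was 4.01% at the lowest, 13.2% at the median and 27.2% at the highest in the reporter-positive group. It was 7.53, 17.8 and 22.3% in the CD44-positive group and 10.6, 18.6 and 32.4% in the CD44-negative group. It was 0.977, 7.83 and 27.3% in the α6-negative group and 9.09, 16.6 and 30.9% after transfer. The ranges of all 5 groups overlapped. In the reporter-positive group 11.4% of cells lay above the CD44-negative median, and the ratio of the medians was 0.710. After transfer 91.5% of cells lay above the reporter-positive median, with a ratio of 1.26, and 35.6% above the CD44-negative median, with a ratio of 0.891. All 91 CD44-negative cells lay above the α6-negative median.

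**Figure D1:**
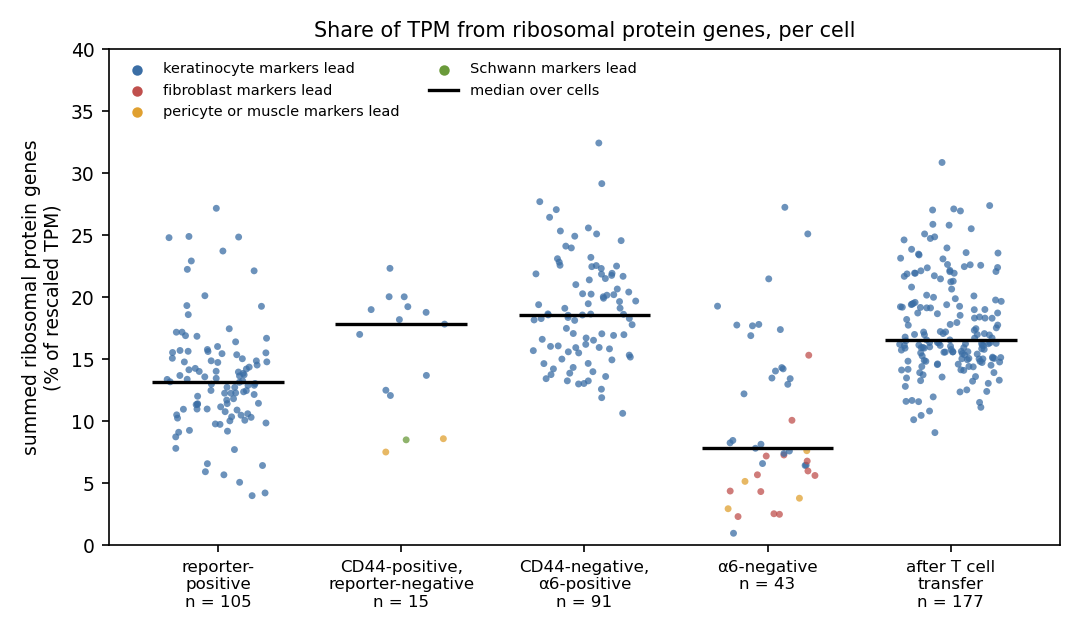
Summed TPM of the 88 ribosomal protein genes in percent of rescaled TPM (vertical axis) for each cell of the 5 groups (horizontal axis). Each point is 1 cell, coloured by the cell type whose markers led, and the line is the median: 13.2% in the reporter-positive cells, 18.6% in the CD44-negative cells and 7.83% in the α6-negative cells, where the fibroblast-led cells lie low.

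The share followed the cell type within the α6-negative gate. Its 26 keratinocyte-led cells had a median of 13.5%, close to the reporter-positive median, its 13 fibroblast-led cells 5.69% and its 4 pericyte-led or muscle-led cells 4.48%. In the CD44-positive group the 12 keratinocyte-led cells had a median of 18.5%, the 2 pericyte-led cells 8.06% and the Schwann-led cell 8.51%. The cells led by mesenchymal or Schwann markers were thus low in both gates, and without them the α6-negative group moved from below the reporter-positive group to slightly above it.

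Plates and sex-linked classes within a gate also differed. The median share was 12.7% on plate CSC1 and 14.5% on plate CSC2, both under the 17.8% of the CD44-positive group, and 16.97% on OT2 and 16.4% on OT_B. The CD44-negative cells fell into 42 with Xist and no Y-linked transcripts and 45 with Y-linked transcripts and no Xist, so that both sexes were present. The first lay in well rows A to D and the second in rows E to H, so that sex and place on the plate cannot be told apart. The median share was 16.1% in the first and 20.2% in the second. Spike-ins took 0.325% and 0.513% in them, and the median numbers of genes were 6803 and 6810. Over the members the Y-linked cells stood higher by a median of 0.29 on the log2 scale, with 81 of 88 members above 0, while the median of all genes was -0.12. Y-linked transcripts without Xist were found in all but 6 reporter-positive, 4 α6-negative and 6 after-transfer cells, which had neither signal. Xist was found in 14 of the 15 CD44-positive cells, so that sex and gate cannot be told apart in the comparison of reporter-positive with CD44-positive cells. Against the 45 Y-linked CD44-negative cells alone, the ratio of the reporter-positive median was 0.654.

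Repeat libraries gave the spread of the share between 2 libraries of a well. Over all repeat pairs the log2 ratio of the shares had an SD of 0.076, and 95% of pairs differed by less than 1.11-fold. The largest difference was 0.27 on the log2 scale. Across cells of the repeated plates the SD of the log2 share was 0.31 to 0.52, several times the spread between repeats. The pairs were chosen by their correlation, so noisier repeats may be missing from this spread. At which step the 2 libraries of a well part is not known here. Technical spread from steps they share, such as the making of cDNA, would be missing from the repeats and present over cells. On plates OT_C and CSC1, where 71 of 72 wells were such pairs, the SD was 0.045 between repeats and 0.43 over cells. These repeats were also offset: the median log2 ratio was 0.075 for OT_C over CSC1 and 0.071 for OT_D over CSC2.

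**Figure D2:**
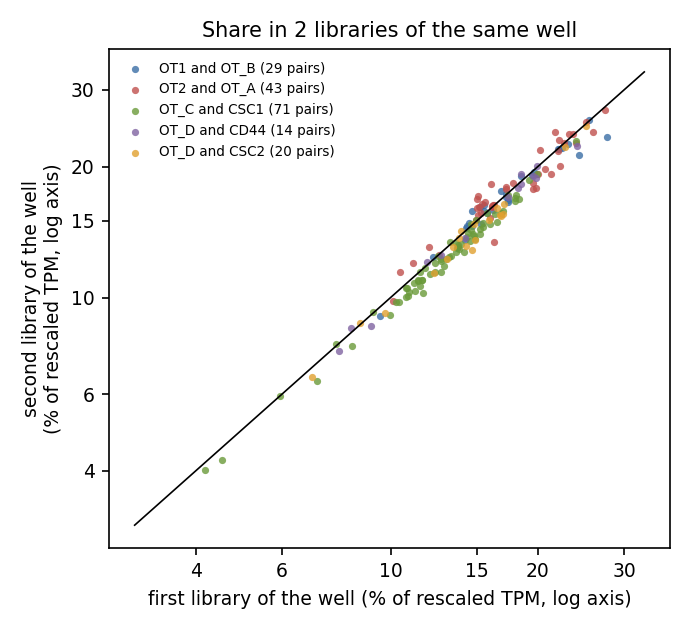
Share of the ribosomal protein genes in the first library of a well (horizontal axis) and in the second (vertical axis), both in percent of rescaled TPM on log axes, for the pairs of repeat libraries, coloured by plate pair. The points lie near the line of equality, with 95% of pairs within 1.11-fold. Most libraries of OT_C were slightly higher than their CSC1 repeats, and most of OT_D than their CSC2 repeats.

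The order of the members was nearly the same in all groups. Spearman's rho of the 88 mean levels between 2 groups was 0.953 to 0.986. Pearson's r of log2 of the mean levels plus 1 was 0.972 to 0.997. Both are descriptions over members measured in the same libraries. Rpl41, a peptide at the subunit interface, and the stalk protein Rplp1 were the 2 most abundant members on average over the groups, followed by Rplp0, Rpl13a and Rps18. The 5 most abundant members of a group made up 13.97 to 15.97% of the summed members. The number of members with a mean of at least 1000 TPM was 53 in the α6-negative group and 63 to 70 in the others. The summed large subunit over the summed small subunit had a median per cell of 1.08 to 1.19.

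The levels of the stalk base Rplp0 are given as an example of an abundant member. It fell by more than the set in reporter-positive over CD44-negative cells, with a log2 ratio of -0.71 against a median of -0.47. Rplp0 had a lowest, median and highest level of 630, 3579 and 10565 TPM in the reporter-positive cells, and of 2702, 5517 and 12722 TPM in the CD44-negative cells. It had 560, 2984 and 9430 TPM in the α6-negative cells, 1553, 4247 and 6676 TPM in the CD44-positive cells and 1347, 4349 and 11884 TPM after transfer. The ranges overlapped, and the CD44-negative median was the highest of the 5. Rplp1 had medians of 4329 TPM in the reporter-positive, 5061 in the CD44-positive, 5856 in the CD44-negative, 2354 in the α6-negative and 6505 TPM in the after-transfer cells. Unlike Rplp0, Rplp1 was thus highest after transfer. Rpl41 shared this order, with medians of 4135, 5130, 5849, 2286 and 6102 TPM in the same order of groups and a range after transfer of 1264 to 35050 TPM.

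In the reporter-positive cells nearly all ribosomal protein genes were lower than in the CD44-negative cells by a like amount. The ratio of mean levels, taken as log2 of TPM plus 1, was below 0 for 80 of 88 members and above 0 for 6, with a median of -0.47, a 0.724-fold level, against 0.01 for all 15189 genes with a mean of at least 1. The median was -0.45 for the large and -0.47 for the small subunit. No member was at least 2-fold higher (13.7% of all genes were) and 1 was at least 2-fold lower (8.95% of all genes), namely Rpl39l, which was listed at 0 in the reporter-positive cells. Its CD44-negative mean of 1.49 TPM came from 1 library at 135.3 TPM and was 0 without it. At the limit of 1.5-fold, 23 members were lower (18.3% of all genes) and 2, Rpl5 and Rps4l, were higher (23.2% of all genes). The shift is thus small in each gene and present in most.

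**Figure D3:**
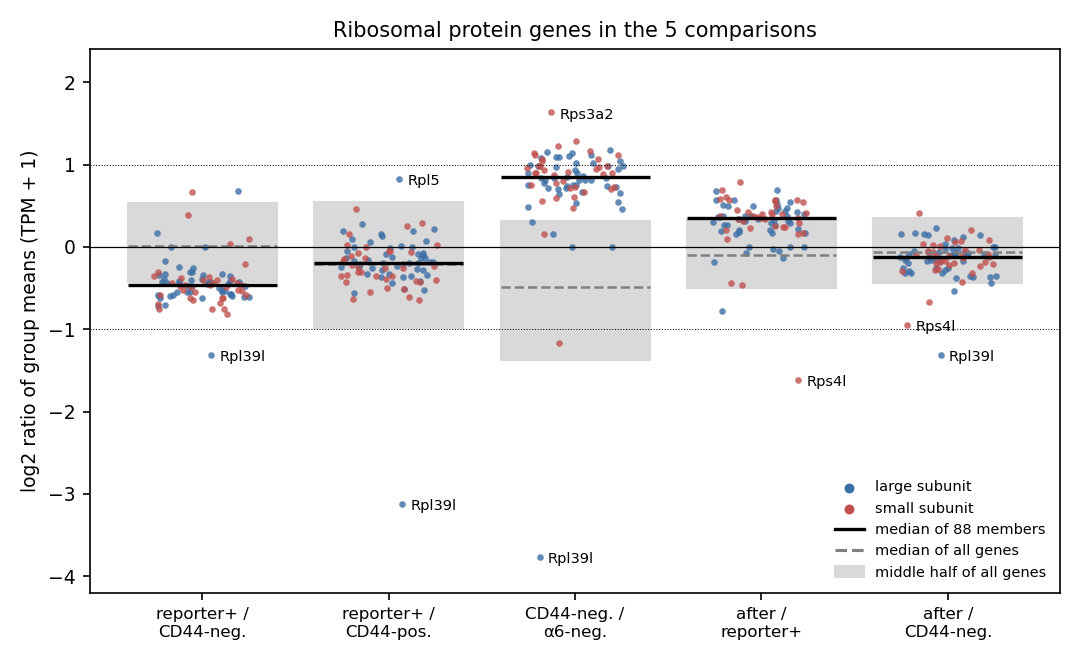
Log2 ratio of group means of TPM plus 1 (vertical axis) for the 88 ribosomal protein genes in the 5 comparisons (horizontal axis), with large subunit members in blue and small subunit members in red. The solid line is the median of the members (-0.47, -0.20, 0.85, 0.35 and -0.12), the dashed line and grey band are the median and the range between the quartiles of all genes, and the dotted lines mark 2-fold; Rpl39l is drawn from a group listed at 0 in 3 of the comparisons or from few cells.

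On their own rows, Rps7, Rps12, Rps26, Rpl13 and Rplp0 were the members of higher level whose share of the set fell most. Summed with near-identical copies, described further on, Rps12 had a log2 ratio of -0.45 and Rps7 of -0.59. The median of all members with copies was -0.46, so that Rps12 did not stand out in this sum. Rps7, a small subunit protein that binds MDM2, had a lowest, median and highest level of 0, 563 and 1207 TPM in the reporter-positive cells and of 413.05, 840 and 1857 TPM in the CD44-negative cells, a log2 ratio of means of -0.75. Rps26, which lies at the messenger exit channel, had 0, 1990 and 4297 TPM against 1098, 3368 and 7392 TPM, also with a log2 ratio of -0.75. The upper parts of both ranges overlapped, and each reporter-positive median lay below its CD44-negative counterpart. Rpl13 had medians of 2198 and 3517 TPM and a log2 ratio of means of -0.72. Rps6, the substrate of S6 kinase, had medians of 1249 and 1972 TPM and a log2 ratio of -0.68. Rps14 and Rps19, whose loss of 1 copy impairs red cell production, had log2 ratios of -0.46 and -0.47, close to the median of the set. Rpsa, the laminin-binding protein of the small subunit, had medians of 1877 and 2291 TPM and a log2 ratio of -0.31.

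The members that went the other way were few. Rpl22l1, with a mean of 576 TPM in the reporter-positive cells, had a log2 ratio of 0.17, and Rps27l, with 407.4 TPM, of 0.03. On its own row Rpl34 fell by less than the set, at -0.17. Summed with near-identical copies, which are described further on, Rpl34 was at -0.53. Rpl5, which with Rpl11 carries the 5S RNA and binds MDM2, had a lowest, median and highest level of 0, 56.2 and 3892 TPM in the reporter-positive cells and of 0, 78.3 and 367.2 TPM in the CD44-negative cells. Its mean was the higher in the reporter-positive cells while its median was the lower. Its log2 ratio of means was 0.68 and rested on 2 libraries at 1000 TPM or more: it was 0.26 without the highest and -0.16 without both. Rpl11, its partner, had medians of 1285 and 1803 TPM and a log2 ratio of -0.57.

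Against the CD44-positive cells the reporter-positive cells were lower by less in mean levels, and not by more than genes at large. Over cells the ratio of the median shares was 0.739, near the 0.710 against the CD44-negative cells. In the reporter-positive group 11.4% of cells lay above the CD44-positive median. The CD44-positive means include the 2 pericyte-led cells and the Schwann-led cell, whose shares were low. Its 12 keratinocyte-led cells had a median share of 18.5%, near the 18.6% of the CD44-negative group. The median log2 ratio of the members was -0.20, with 69 below 0 and 17 above, and that of all 16278 genes was -0.21. No member was at least 2-fold higher (16.3% of all genes), and Rpl39l alone was at least 2-fold lower (24.7% of all genes), again from a group listed at 0. The CD44-positive mean of Rpl39l came from 1 pericyte-led library at 115.5 TPM and was 0 without it. At 1.5-fold, Rps7, Rps24, Rps12l2 and Rpl39l were lower (36.2% of all genes) and Rpl5 was higher (23.8%). The ratio of Rpl5, 0.83, was -0.007 without the 2 reporter-positive libraries at 1000 TPM or more and -0.13 when summed with its near-identical copies. Rps24, a small subunit protein, had a lowest, median and highest level of 398.3, 1692 and 3688 TPM in the reporter-positive cells and of 1389, 2704 and 4236 TPM in the CD44-positive cells, a log2 ratio of means of -0.63. The lowest CD44-positive cell still overlapped the reporter-positive range. Rpl35a and Rps16 had log2 ratios of -0.56 and -0.55. The direction of this comparison turned with the scaling: with TPM as deposited, ribosomal RNA included, the median of the members was 0.07, and that of all genes moved from -0.21 to -0.03.

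The α6-positive, CD44-negative cells stood well above the α6-negative cells. The median log2 ratio of the members was 0.85, a 1.81-fold level, with 84 above 0 and 2 below, while the median of all 17045 genes was -0.48. At least 2-fold higher were 21 members (11.7% of all genes) and at least 2-fold lower were 2 (34.5% of all genes), Rpl39l and Rps4l. The call of Rps4l depended on 1 α6-negative library at 691.2 TPM. Without it the α6-negative mean fell from 57.5 to 42.4 TPM, under 2-fold above the CD44-negative mean of 24.9 TPM. At 1.5-fold, 75 members were higher (18.9% of all genes) and the same 2 were lower (46.9%). Rps3a2, at under 3 TPM in mean, had the highest ratio, 1.63, and among the abundant members Rps12, Rps12l1, Rpl36, Rps13, Rpl11, Rplp1 and Rpsa led, with log2 ratios of 1.28, 1.22, 1.17, 1.17, 1.16, 1.14 and 1.14. Rpl36 had a lowest, median and highest level of 806, 2094 and 5342 TPM in the CD44-negative cells and of 0, 525.95 and 5379 TPM in the α6-negative cells. Rpsa had 1118, 2291 and 3247 TPM against 0, 997 and 2420 TPM. Both ranges overlapped, and the α6-negative cells reached down to 0 in both genes. Rpl3, which lies near the peptidyl transferase centre, had medians of 1472 and 1277 TPM and a log2 ratio of 0.16 on its own row, and of 0.74 summed with its near-identical copies.

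The size of this difference depended on which α6-negative cells were taken. Against the 26 keratinocyte-led cells the median log2 ratio was 0.49, and that of all genes was -0.19. The members at least 2-fold higher were Rpl39l and Rps3a2, both at 0 in those cells, and Rpl39l was seen in 1 CD44-negative library. Against the 13 fibroblast-led cells the median of the members was 1.61, and that of all genes was -0.39. Within the α6-negative gate itself, keratinocyte-led cells stood above fibroblast-led cells by a median of 1.12, against -0.19 for all genes. The reporter-positive cells and the keratinocyte-led α6-negative cells differed by a median of 0.04. The α6-negative libraries also had fewer genes and more spike-in RNA (2.78% at the median), and the part of these in the result was not tested.

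After transfer the ribosomal protein genes were higher than in the reporter-positive cells. The median log2 ratio was 0.35, a 1.27-fold level, with 76 members above 0 and 9 below, against -0.09 for all 15297 genes. No member was at least 2-fold higher (7.41% of all genes) and Rps4l was at least 2-fold lower (11.4% of all genes). The 5 members with the highest ratios were Rps12 at 0.79, Rps24 at 0.70, Rpl37a at 0.69, Rpl13a at 0.68 and Rps9 at 0.61, and the 3 with the lowest were Rps4l at -1.61, Rpl5 at -0.78 and Rps27l at -0.46. The value of Rpl5 rested on the same 2 reporter-positive libraries and was 0.05 without them, and 0.18 when Rpl5 was summed with its near-identical copies. Rpl13a, which is also part of an interferon-gamma-activated inhibitor of translation, had a lowest, median and highest level of 710, 3009 and 7829 TPM in the reporter-positive cells and of 2120, 4525 and 15088 TPM after transfer, a log2 ratio of means of 0.68. Rps12 had 0, 1771 and 7126 TPM against 0, 2695 and 6983 TPM, a log2 ratio of 0.79 on its own row. Summed with its near-identical copies Rps12 was at 0.49. The ranges overlapped, and the after-transfer medians were the higher in both. Both after-transfer plates gave this direction, with medians over the members of 0.36 on OT2 and 0.28 on OT_B. With TPM as deposited the median fell to 0.06, while that of all genes moved to -0.23. The spike-in share was lower after transfer, 0.134% against 0.284%, and its part in the difference was not tested.

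Against the CD44-negative cells the after-transfer cells differed little. The median log2 ratio of the members was -0.12, with 68 below 0 and 18 above, and that of all 14909 genes was -0.07. No member was at least 2-fold higher (8.24% of all genes) and 1 was at least 2-fold lower (7.49% of all genes), Rpl39l, listed at 0 after transfer and seen in 1 CD44-negative library. At 1.5-fold none was higher (16.8% of all genes) and Rpl39l, Rps3a2 and Rps4l were lower (18.1%). Rpl41 was at 0.23, Rps23 at 0.20 and Rplp2 at 0.16, while Rplp0 was at -0.29, Rpl13 at -0.36 and Rps27l at -0.43. The stalk proteins thus did not move together here, since Rplp0 and Rplp2 had opposite signs.

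The paralogues took different parts of their pairs in different gates. Rpl22l1, which can stand in for Rpl22 and affects splicing, had 66.4% of the mean level of Rpl22 in the reporter-positive cells, 56.3% in the CD44-positive, 43.99% in the CD44-negative, 58.6% in the α6-negative and 47.9% in the after-transfer cells. Rpl22l1 itself had nearly the same median in the reporter-positive and CD44-negative cells, 548 and 464.1 TPM, while Rpl22 had medians of 737 and 1089 TPM. Rps27l, a p53 target, had 14.9% of the level of Rps27 in the reporter-positive cells, 9.10% in the CD44-positive, 9.34% in the CD44-negative, 13.8% in the α6-negative and 8.43% in the after-transfer cells. Rps27l had medians of 368.6 and 367.4 TPM in the reporter-positive and CD44-negative cells and of 256.7 TPM after transfer, while Rps27 had 2118, 4066 and 2905 TPM. Both ratios were thus highest in the reporter-positive cells, where the partner was low and the paralogue was not. Rpl7l1, a factor of large subunit assembly, stayed at 1.57 to 2.44% of Rpl7.

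Rpl39l, the paralogue of Rpl39 best known from the testis, was seen in mesenchymal cells. With repeat libraries counted once, it was at or above 1 TPM in 8 of 12 fibroblast-led α6-negative cells (exact 95% binomial interval 34.9 to 90.1%), and over their 13 libraries it had a median of 106.5 and a highest value of 250 TPM. It was also seen in 1 of 4 pericyte-led or muscle-led α6-negative cells and in 1 of 2 pericyte-led CD44-positive cells. Among keratinocyte-led cells it was seen in 0 of 26 α6-negative, 0 of 11 CD44-positive and 1 of 91 CD44-negative cells. It was listed at 0 in every reporter-positive cell (interval up to 3.55%) and in every after-transfer cell (interval up to 2.06%). Rpl39 itself was at a median of 1093 TPM in the reporter-positive and 670 TPM in the α6-negative cells. Such intervals cover counting error only. Rpl3l, the striated muscle form of Rpl3, and Rpl10l, the testis form of Rpl10, were listed at 0 in every cell used.

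Among the 88 rows 5 were annotated as processed pseudogenes, although their symbols pass the rule: Rps12l1, Rps12l2, Rps3a2, Rps3a3 and Rps4l. Rps12l1 was the abundant one, with a median of 2754 TPM in the reporter-positive and 3258 TPM in the CD44-negative cells, above Rps12 itself, and Rps12l2, Rps3a2 and Rps3a3 had means of under 3 TPM in every group. Rps4l, a transcribed processed pseudogene on chromosome 6, was at or above 1 TPM in 62.7% of reporter-positive cells (exact 95% interval 52.6 to 72.1%, repeat libraries counted once), 7 of 14 CD44-positive, 38 of 91 CD44-negative (41.8%, 31.5 to 52.6%), 16 of 42 α6-negative and 23.2% of after-transfer cells (17.2 to 30.1%). Its mean was 40.2, 29.1, 24.9, 57.5 and 12.5 TPM in the same order of groups, and the α6-negative mean was 42.4 TPM without its highest library. It had no near-identical copy among the rows, its ratio after transfer over reporter-positive was -1.61 on the log2 scale, and the parent gene Rps4x was at 0.21 in the same comparison.

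For some members, copies elsewhere in the genome held much of the signal. A copy was a row whose transcript matched a member's coding sequence at 95% identity or more over at least 80% of its length, and 77 of 88 members had 460 such rows, all but 5 of them outside the set. In 58 members the copies held under 10% of the sum of member and copies. In 12 they held over 55%: Rps3a2, Rps3a3, Rpl12, Rpl5, Rpl27, Rpl27a, Rps23, Rps12, Rpl37, Rpl31, Rps29 and Rps12l1. For Rpl5 the copy row Gm15500 had a mean of 2192 TPM in the reporter-positive and 3202 TPM in the CD44-negative cells, far above the mean of Rpl5 itself, 141.3 and 87.8 TPM. Summed with its copies Rpl5 had a log2 ratio of -0.50 in place of 0.68, and thus followed the rest of the set. RSEM, which the authors used, divides reads that fit a gene and its copy equally well by estimation, so the level of such a member on its own row is uncertain. Over all members the medians with copies were -0.46, -0.20, 0.82, 0.37 and -0.11 in the 5 comparisons, close to those without.

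**Figure D4:**
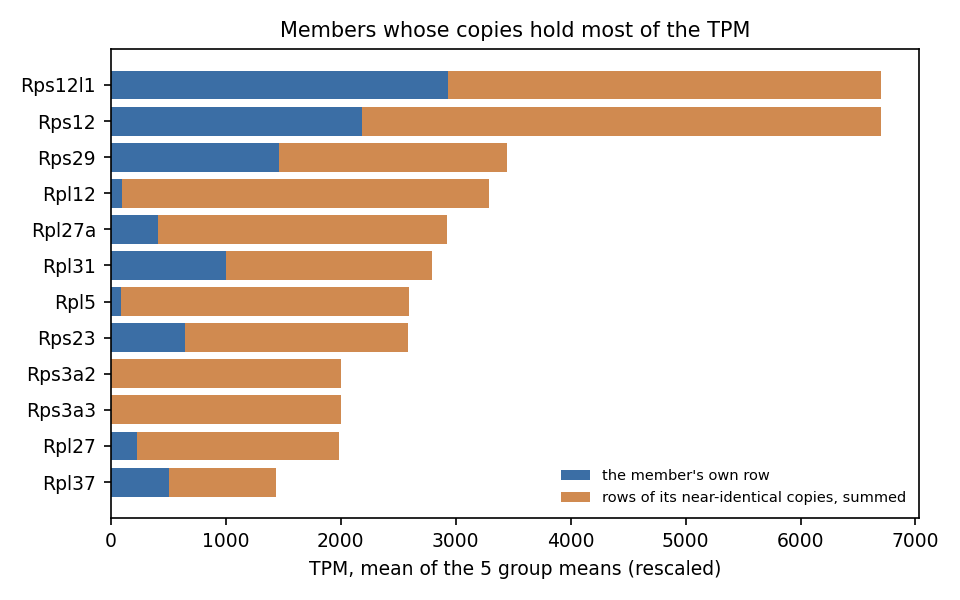
Mean TPM over the 5 groups (horizontal axis) of the 12 members whose near-identical copies hold over 55% of the sum (vertical axis), split into the member's own row (blue) and its copies (orange). The own rows of Rpl5, Rpl12 and Rpl27 are short beside their copies, and Rps12 and Rps12l1 are copies of each other.

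The copy rows of 2 members differed between cells in an all-or-none way that followed plates and sex-linked transcripts, not only gates. Rpl34-ps1, whose transcript matches the coding sequence of Rpl34 at 99.4% identity, had a lowest, median and highest level of 449.2, 1076 and 1948 TPM in the 42 CD44-negative cells with Xist. It was under 1 TPM in 41 of the 45 CD44-negative cells with Y-linked transcripts, where its highest value was 103.8 TPM. The ranges did not overlap. It was at or above 1 TPM in all 15 CD44-positive cells but in 3 of 73 cells of plate CSC1, 4 of 32 of CSC2, 1 of 43 α6-negative cells, 7 of 87 cells of OT2 and 2 of 90 of OT_B. Of the copy rows outside the set, Rpl34-ps1 was the 1 row seen in at least 90% of either class of CD44-negative cells and in at most 20% of the other, limits chosen after seeing the values. Rpl34 itself had a mean of 1374 TPM in the Xist cells and 2373 TPM in the Y-linked cells, and the mean of Rpl34-ps1 was 1153 and 5.35 TPM, so that the sums of gene and copy were close. Summed with its copies, Rpl34 went from 0.28 to -0.48 in reporter-positive over CD44-positive cells and from -0.17 to -0.53 over CD44-negative cells.

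Rpl3-ps1, at 99.8% identity to Rpl3, split the cells differently. It was at or above 1 TPM in all 73 cells of plate CSC1 but in 10 of 32 of plate CSC2, which share a gate. It was seen in all 91 CD44-negative and all 15 CD44-positive cells, in 2 of 43 α6-negative cells, in 4 of 87 cells of OT2 and in 1 of 90 of OT_B. Its median was 503.9 TPM on CSC1, 736 TPM in the CD44-negative group and 0 on CSC2. With copies, Rpl3 went from 0.16 to 0.74 in CD44-negative over α6-negative cells and from 0.47 to 0.03 in after-transfer over reporter-positive cells. Both splits also lay within single plates. On the CD44-negative plate Rpl34-ps1 was at or above 1 TPM in all 45 cells of well rows A to D and in 4 of 46 cells of rows E to H. On plate CSC2 Rpl3-ps1 was at or above 1 TPM in 10 of 12 cells of rows A and B and in 0 of 20 cells of rows C to F. The cells of each plate carry the same strain label, and the labels tie no cell to an animal.

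**Figure D5:**
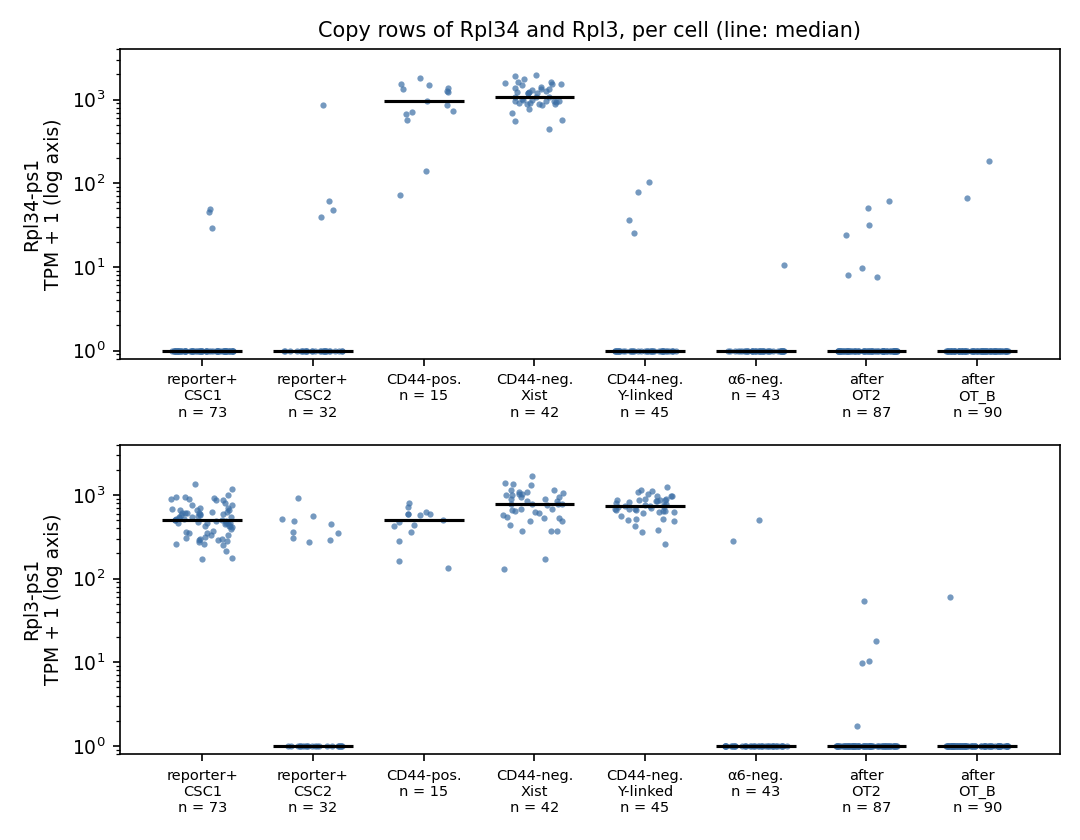
TPM plus 1 on a log axis (vertical axis) of Rpl34-ps1 (top) and Rpl3-ps1 (bottom) in each cell, by group, plate or sex-linked transcripts (horizontal axis), with the median as a line. Rpl34-ps1 is high in the CD44-positive cells and the CD44-negative cells with Xist, and Rpl3-ps1 is high on plate CSC1 and in the CD44-positive and CD44-negative cells but at 0 in most cells of CSC2, of the α6-negative group and after transfer.

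Most members were seen in nearly every cell. The number of members at 1 TPM or more in every cell was 41 in the reporter-positive, 77 in the CD44-positive, 69 in the CD44-negative, 9 in the α6-negative and 65 in the after-transfer group. The number seen in at least 90% of cells was 80, 79, 81, 55 and 79. The coefficient of variation over cells had a median over members of 43.3% in the reporter-positive, 39.7% in the CD44-positive, 31.9% in the CD44-negative, 77.2% in the α6-negative and 35.04% in the after-transfer group, among members with a mean of at least 100 TPM. Rpl19 varied least in the reporter-positive and after-transfer cells, Rpsa in the CD44-negative, Rps16 in the CD44-positive and Rps2 in the α6-negative cells.

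The members moved together from cell to cell. Spearman's rho of a member with the sum of the others had a median of 0.63 in the reporter-positive, 0.75 in the CD44-positive, 0.71 in the CD44-negative, 0.82 in the α6-negative and 0.57 in the after-transfer cells. The values of a cell share library and scaling. Rpl21 and Rpl32 were among the most closely tied, at 0.90 for Rpl21 in the reporter-positive and 0.92 for Rpl32 in the CD44-negative cells. Rpl7l1 was at -0.04, -0.36, 0.03, 0.45 and -0.14 in the same order of groups, and Rps2 was at -0.19 in the CD44-negative cells. Across cells the summed share had a rho with the spike-in share of 0.23, 0.30, 0.66, -0.06 and 0.48 in the same order of groups, and with the number of genes of 0.004, -0.38, -0.52, 0.07 and -0.29. Members with a pyrimidine run of at least 8 had median log2 ratios of -0.53, -0.24, 0.82, 0.36 and -0.12 in the 5 comparisons, and those with shorter runs -0.47, -0.19, 0.89, 0.35 and -0.12.

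Other genes of translation shifted with the ribosomal protein genes in some comparisons and not in others. Of 20 translation factors and other genes with TOP-type messages, the median log2 ratio was -0.38 for reporter-positive over CD44-negative cells, 0.64 for CD44-negative over α6-negative cells and 0.11 for after-transfer over reporter-positive cells, against 0.01, -0.48 and -0.09 for all genes. Eef1a1, the elongation factor that brings tRNA to the ribosome, had means of 4611 and 6596 TPM in the reporter-positive and CD44-negative cells, and Eef2, which moves the ribosome along, of 1372 and 1999 TPM. In CD44-negative over α6-negative cells 4 of the 20 were at least 2-fold higher, Npm1, Eif3e, Fau and Pabpc1 (11.7% of all genes), and none lower (34.5% of all genes). The 28 initiation factors had medians of -0.08, 0.29 and -0.10 in these 3 comparisons, with Eif4e, the cap-binding protein, 2.61-fold higher and Eif4a2 lower in CD44-negative than in α6-negative cells. The 40 ribosome biogenesis genes had medians of -0.31, 0.76 and -0.01, with 12 at least 2-fold higher (11.7% of all genes) in CD44-negative than in α6-negative cells, among them Nolc1, Mrto4, Dkc1 and the nucleolar methylase Fbl. Tcof1, a factor of ribosomal RNA transcription, was at 17.1 TPM in the reporter-positive and 42.2 TPM in the CD44-negative cells. The 77 mitochondrial ribosomal proteins, which serve a separate ribosome, had medians of -0.17, 0.53 and -0.17. In reporter-positive over CD44-positive cells the lists of TOP-type, initiation, biogenesis and mitochondrial genes had medians of -0.05, 0.20, 0.04 and 0.004, against -0.20 for the members and -0.21 for all genes. In after-transfer over CD44-negative cells they had -0.31, -0.10, -0.33 and -0.32, against -0.12 for the members and -0.07 for all genes. After transfer the cytosolic set was thus higher than in the reporter-positive cells, at 0.35, while the medians of the initiation, biogenesis and mitochondrial lists lay at or below 0.

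Regulators of ribosome production did not move as a list. Of 20 mTOR and MYC regulators, 3 were at least 2-fold higher (13.7% of all genes) and 1 lower (8.95% of all genes) in the reporter-positive than in the CD44-negative cells, shares near those of all genes, with a median of -0.12. Mxd1, a MYC antagonist, had means of 64.02 and 11.8 TPM, Sesn2 and Ddit4, which restrain mTOR, had 24.03 and 8.69 TPM and 51.5 and 24.3 TPM, and Mycl had 3.82 and 22.7 TPM. Myc had a mean of 151.6 TPM in the CD44-negative and 51.01 TPM in the α6-negative cells. Of 10 genes of p53 and MDM2, to which free Rpl5 and Rpl11 bind, 4 were at least 2-fold higher in the reporter-positive than in the CD44-negative cells (13.7% of all genes) and none lower (8.95% of all genes), with a median of 0.62: Mdm2 (101.5 and 23.9 TPM in mean), Ccng1 (174.9 and 44.7 TPM), the cell cycle inhibitor Cdkn1a (919 and 270 TPM) and Zmat3 (29.3 and 9.68 TPM). After transfer Ccng1 was at 59.03, Mdm2 at 54.01, Cdkn1a at 631 and Zmat3 at 25 TPM, and 3 of the 10 genes were at least 2-fold above the CD44-negative cells (8.24% of all genes). Of 20 mitosis genes, 9 were at least 2-fold lower in the reporter-positive than in the CD44-negative cells (8.95% of all genes), with a median of -0.95, and 19 were at least 2-fold higher in the CD44-negative than in the α6-negative cells (11.7% of all genes), where Cdc20 was listed at 0. As a description, the mean log2 of TPM plus 1 over the mitosis genes of a cell was set beside its ribosomal protein share. Spearman's rho was 0.04 in the reporter-positive, -0.39 in the CD44-positive, -0.23 in the CD44-negative, 0.22 in the α6-negative and -0.20 in the after-transfer group.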

How the data were processed

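The authors sorted single cells, made Smart-seq2 and Nextera XT libraries and sequenced them on a NextSeq 500, per the labels' protocols. They deposited TPM per gene and cell, from Bowtie2 2.2.9 and RSEM 1.2.30 on mm10, per the submitters' processing notes. RSEM divides reads with several matches by estimation. Its settings are not stated here, and read depth is unknown.

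Kept were libraries with 2000 genes or more at 1 TPM and above (696 of 891). A further 17 columns of values, failed wells with their whole total in 1 row, were not used. TPM was rescaled to its original total without the 92 spike-in and 8 ribosomal RNA rows. Group means were compared as log2 of TPM plus 1. All genes with a mean of at least 1 in either group gave the background. Annotation came from GENCODE M21, copies from blastn 2.17.0, other steps from Python 3.11.15, numpy 2.4.6 and pandas 2.3.3. The scripts were tested on simulated data.

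Members, gene lists and named genes were chosen with earlier results of these data known. Named were the paralogue pairs, the stalk and other much-studied members, the 5 highest and lowest, members at least 2-fold apart, the 5 whose share of the set changed most each way, and up to 4 genes of each other list. The cell types, copies, their 55% limit and 2 copy rows were examined or set after seeing the data. One member is not reported by name. Alternatives covered scaling, pseudocount, gene minimum, cell type, plate, sex-linked class and copies.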

Additional observations from a re-analysis of the deposited data

How the results depend on the processing

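Of 80 medians of the members under alternatives, 76 stayed within 1.2-fold with the same sign. With TPM as deposited, reporter-positive over CD44-positive turned from -0.20 to 0.065, and after-transfer over reporter-positive went from 0.35 to 0.064. CD44-negative over α6-negative went from 0.85 to 1.13 with medians over cells, and to 0.49 with keratinocyte-led cells alone. The cause of the other shifts was not tested. Median shares with TPM as deposited, ribosomal RNA included, were 3.63, 4.28, 4.90, 1.88 and 4.32% in the reporter-positive, CD44-positive, CD44-negative, α6-negative and after-transfer cells. Other shares that moved were the CD44-negative one, to 22.5% in libraries with 3000 to 6000 genes and 22.3% with copies, the α6-negative one, to 13.5% in keratinocyte-led cells, and the after-transfer one, to 19.9% with copies.

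Counts of members at least 2-fold apart were small and moved in 47 of 160 cases. For reporter-positive over CD44-negative the higher count was 1 with TPM as deposited or medians over cells. The lower count was 0 with TPM as deposited, a pseudocount of 10, a mean of at least 10 or medians over cells, 2 with a pseudocount of 0.1, and 20 in libraries with 3000 to 6000 genes. Leaving out each plate in turn gave 0 to 1 higher and 1 to 2 lower. For reporter-positive over CD44-positive the higher count was 1 with TPM as deposited, a pseudocount of 0.1, medians over cells or keratinocyte-led cells, and the lower count 2 with a pseudocount of 0.1 and 0 with a pseudocount of 10, a mean of at least 10, medians over cells or keratinocyte-led cells. In libraries with 3000 to 6000 genes it was 3 higher and 12 lower, and without a plate 0 to 1 higher. For CD44-negative over α6-negative the count was 52 higher and 0 lower with medians over cells, 7 higher with at least 4000 genes, 37 higher and 1 lower with 3000 to 6000 genes, 2 higher and 0 lower in keratinocyte-led cells, 40 higher and 1 lower with Y-linked cells, and 1 lower with a pseudocount of 10. For after-transfer over reporter-positive it was 2 lower with TPM as deposited, 1 higher and 2 lower with a pseudocount of 0.1, 5 higher and 0 lower with 3000 to 6000 genes, 0 lower with all plates labelled after transfer, and 1 to 2 lower without a plate. For after-transfer over CD44-negative it was 1 higher and 2 lower with a pseudocount of 0.1, 0 lower with a pseudocount of 10, a mean of at least 10 or medians over cells, 2 lower with at least 4000 genes or Y-linked cells, and 1 to 2 lower without a plate.

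Without the 2 reporter-positive libraries at 1000 TPM or more of Rpl5, its log2 ratio turned from 0.68 to -0.16 over CD44-negative cells, from 0.83 to -0.0070 over CD44-positive cells, and from -0.78 to 0.052 in after-transfer over reporter-positive cells. These values, the copy sums and the set of all plates labelled after transfer were added after seeing the data. No paired analysis was possible because the replicate numbers only name libraries in accession order and no result comes from a test. Depth is unknown, so levels near 1 TPM and cells at 0 cannot be told apart from missed transcripts.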

Other observations

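The rows of Rpl34-ps1 and Rpl3-ps1 can be set side by side in each cell. In the CD44-positive group all 15 cells held both at 1 TPM or more. In the CD44-negative group 49 cells held both and 42 held Rpl3-ps1 without Rpl34-ps1. In the reporter-positive group 80 cells held Rpl3-ps1 without Rpl34-ps1, 3 held both, 4 held Rpl34-ps1 alone and 18 held neither. In the α6-negative group 40 of 43 cells held neither. In the after-transfer group 1 cell held both, 4 held Rpl3-ps1 alone, 8 held Rpl34-ps1 alone and the rest held neither. These values were examined after the pattern had been seen.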
